A study of Mus musculus with 6 samples.

Results

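Metabotropic glutamate receptors are G protein-coupled receptors that sense glutamate and tune synapses over longer times than the ion channels do. Group I receptors couple to Gq, sit mostly around the postsynaptic density and raise inositol phosphates and calcium. Group II and III receptors couple to Gi/o, lower cyclic AMP and mostly restrain transmitter release from nerve endings. The genes described are Grm5 (group I), Grm2 and Grm3 (group II) and Grm4, Grm7 and Grm8 (group III). They are the 6 rows of the deposited count table that carry these symbols, out of 55416 gene rows, and other members of the family were not analysed here.

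The libraries come from the hippocampus of 36-day-old mice. EU mice received ethynyluridine, a uridine analogue that cells build into new RNA, under the skin on postnatal days 3 to 5, as 1 dose of 50 mg/kg each day, and PBS mice received an equal volume of phosphate-buffered saline. RNA of both groups (3 EU and 3 PBS libraries) was treated alike, with a click reaction that adds biotin to ethynyluridine and a pulldown on streptavidin beads, so the PBS pulldown measures background binding, and the comparison asks which RNAs made in the first days of life are still present at day 36. The labels name no strain, sex or genotype, and do not say whether replicates are separate animals. The p-values therefore set the difference between groups against how far these libraries differ within a group, which may be partly technical.

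Totals lay between 39886723 and 58301239 counts per library, and the 6 receptor rows held between 321 and 21439 counts each. At the lowest of these counts the counting error alone is 5.58%, and for Grm5 it is at most 0.881%. PBS replicate 2 was the least like the others: its log2 CPM correlated with theirs at a mean of 0.938, where every other library reached 0.970 to 0.977. It also had the fewest genes with at least 1 count, 19243, where the others had 23816 to 26372. Markers of dentate granule neurons (7 genes) and of CA pyramidal neurons (8 genes) were counted in all 6 libraries, as the tissue label says they should be. In bulk RNA, fewer cells of a type and less RNA per cell cannot be told apart.

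Ethynyluridine enters RNA at uridines, so the base composition of the receptor RNAs bears on how much label each could carry. The first 60 coding bases of each gene are shown for that reason, from the longest complete coding sequence in the GENCODE transcripts of build GRCm38. They are written 5′ to 3′ in DNA letters, with T, the uridine positions of the RNA, in capitals. This stretch encodes the start of each protein, where the secretion signal that takes the receptors to the cell surface lies.
Grm5: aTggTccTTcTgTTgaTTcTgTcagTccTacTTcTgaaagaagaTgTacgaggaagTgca
Grm2: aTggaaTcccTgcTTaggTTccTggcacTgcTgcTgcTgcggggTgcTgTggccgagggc
Grm3: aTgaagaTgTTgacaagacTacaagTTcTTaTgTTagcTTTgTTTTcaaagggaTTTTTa
Grm4: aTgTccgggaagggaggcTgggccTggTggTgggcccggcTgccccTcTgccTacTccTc
Grm7: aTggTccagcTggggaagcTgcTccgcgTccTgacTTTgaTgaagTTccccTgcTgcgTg
Grm8: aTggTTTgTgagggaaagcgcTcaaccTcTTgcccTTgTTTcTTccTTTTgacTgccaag

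In these stretches Grm3 held 24 uridine positions, the most of the 6 genes, and Grm4 held 12, the fewest. Over whole transcripts, taken as the longest annotated protein-coding one, Grm4 was again the lowest. Uridine made up 20.2% of the Grm4 transcript, which lies at percentile 11.9 of all tested genes. It made up 28.5% of the Grm5 transcript (percentile 82.3), and 24.0% to 26.1% of the other four. The median over tested genes was 24.6%. With 8047 bases and 2297 uridines the Grm5 transcript offered the most positions, and Grm3 with 795 the fewest. The gene with the lowest uridine share, Grm4, had the highest fold of EU over PBS of the 6 receptors, and the gene with the highest share, Grm5, had the lowest fold. Between them Grm2, Grm8, Grm7 and Grm3, in order of rising share, had log2 folds of 0.29, 0.16, 0.02 and 0.30. Whether uridine share bears on the folds of these receptors was not tested. Across 18431 tested genes with a matched transcript, Spearman's rho between uridine share and log2 fold was 0.0159, a description across genes that are not independent replicates.

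Per length of annotated exon, Grm5 and Grm3 were the most abundant of these receptor RNAs in both pulldowns. Grm5, the main group I receptor of forebrain neurons, averaged 32.3 ± 1.03 CPM per kb in EU libraries and 34.8 ± 1.65 CPM per kb in PBS libraries (SD, n = 3 each). Grm3, which astrocytes express as well as neurons, averaged 29.7 ± 3.15 CPM per kb in EU and 24.1 ± 2.99 in PBS. Grm5 and Grm3 overlapped in EU, where Grm5 ran from 31.4 to 33.4 and Grm3 from 26.4 to 32.7 CPM per kb, and did not overlap in PBS, where Grm5 began at 33.0 and Grm3 ended at 26.4.

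Grm2, a presynaptic autoreceptor of dentate granule and cortical neurons, followed at 15.2 ± 1.38 CPM per kb in EU and 12.4 ± 1.24 in PBS. Grm7, which sits at the release sites of nerve endings, stood at 8.39 ± 0.828 in EU and 8.25 ± 0.335 in PBS. Grm4, a presynaptic receptor best known from cerebellar granule cells, stood at 4.77 ± 0.632 in EU and 3.34 ± 0.522 in PBS. Grm8, another presynaptic group III receptor, was the lowest at 0.983 ± 0.122 CPM per kb in EU libraries and 0.882 ± 0.183 in PBS libraries (SD, n = 3 each). From Grm3 downward, no neighbours in this order overlapped in either pulldown. When the longest protein-coding transcript was used as the length, the order was the same, but Grm5 lay apart from Grm3 in EU as well. On that length Grm5 ran from 39.9 to 42.5 and Grm3 from 26.4 to 32.7 CPM per kb in EU libraries, while Grm2 and Grm7 overlapped in PBS libraries (11.4 to 13.7 and 11.2 to 12.1).

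None of the 6 receptor RNAs differed between EU and PBS libraries at an adjusted p under 0.05. All 6 passed the filter on low counts, and 0 passed edgeR's quasi-likelihood test, where 0% of the 18511 tested genes did. An unadjusted p under 0.05 was reached by 3 receptor genes with higher values in EU and 0 with lower, where 3.84% and 4.05% of all tested genes did so in each direction. DESeq2 called 1 of the 6, Grm4, where it called 2.46% of the 11692 genes to which it gave an adjusted p, and limma voom called 0, where it called 0.0648% of tested genes. Of the 6 genes 5 had higher values in EU, against 52.2% of all tested genes, and the median log2 fold was 0.22, against 0.01 over all tested genes. Because libraries are scaled to comparable totals, an EU pulldown that held more RNA of every kind would look the same as one that did not.

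**Figure D1:**
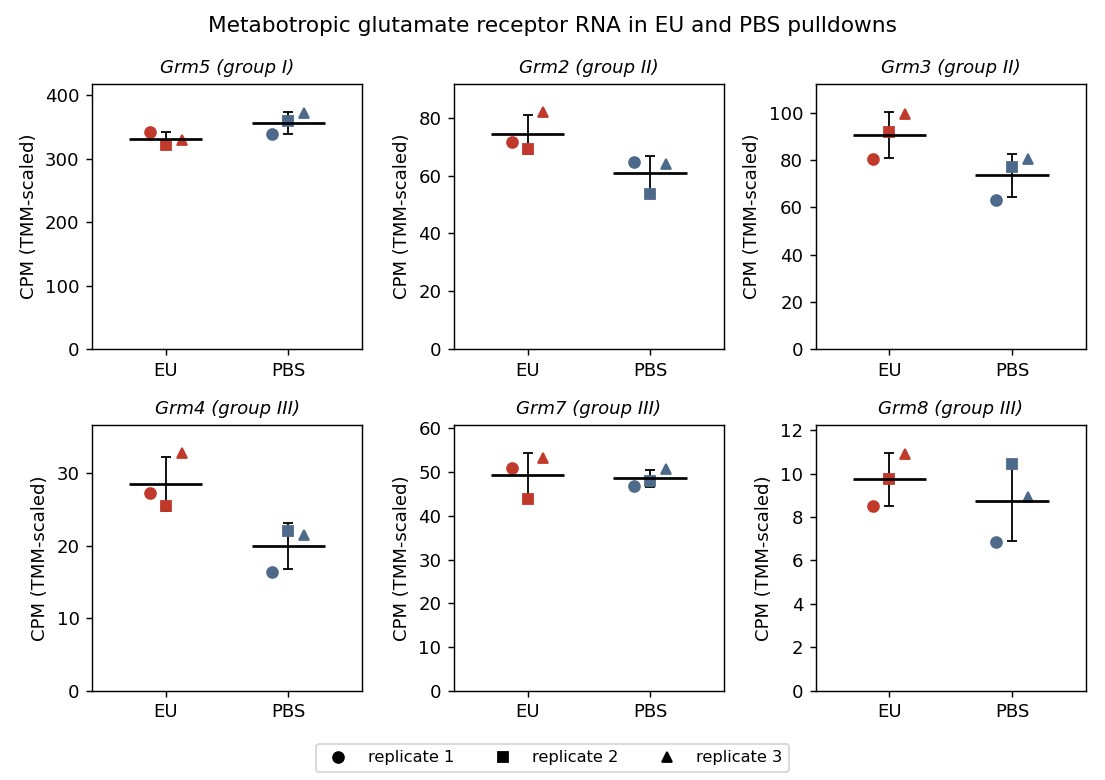
Level of each receptor gene in CPM (counts scaled to library size), adjusted by trimmed mean of M-values (TMM) factors, with 1 point per library, the group mean as a bar and the SD as the error bar (n = 3 each). The EU and PBS points are apart for Grm2, Grm3 and Grm4 and overlap for Grm5, Grm7 and Grm8.

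Grm5 (chromosome 7, 87233376 to 87784115, plus strand, GRCm39 as all positions here) had lower values in EU on average. It stood at 342.3, 321.5 and 328.9 CPM in the EU libraries, against 338.3, 358.9 and 371.9 CPM in the PBS libraries. The groups overlapped, since EU replicate 1 lay above PBS replicate 1. The log2 fold of EU over PBS was -0.11 (SE 0.05, 95% interval -0.23 to 0.01, edgeR adjusted p = 0.686). That interval corresponds to 0.856 to 1.01 times the PBS level, the narrowest among the 6 genes. Leaving out each library in turn gave -0.15 to -0.07, and a correction for GC content and length of the transcript gave -0.07.

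Grm2 (chromosome 9, 106520294 to 106533281, minus strand) had higher values in EU. It stood at 71.7, 69.1 and 81.9 CPM in the EU libraries, against 64.6, 53.7 and 63.9 CPM in the PBS libraries. Each EU library lay above each PBS library, and PBS replicate 2 was the lowest. Its log2 fold stood at 0.29 (SE 0.09, 95% interval 0.08 to 0.50, edgeR adjusted p = 0.450), or 1.22 times the PBS level. The fold was 0.20 without PBS replicate 2 and 0.20 without EU replicate 3, the lowest values when a library was left out. With the correction for GC content and length it was 0.34. CPM of the groups did not overlap for 3 of the 6 receptor genes, all with EU higher, where 8.52% of all tested genes did so in that direction, and for 0 with EU lower, against 7.18%.

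Grm3 (chromosome 5, 9535541 to 9775170, minus strand) had higher values in EU. It stood at 80.6, 91.8 and 99.7 CPM in the EU libraries, against 63.2, 77.0 and 80.4 CPM in the PBS libraries. EU replicate 1 and PBS replicate 3 differed by less than the counting error, which is 1.84% at the lowest Grm3 count. With relative log expression (RLE) size factors in place of TMM the groups overlapped (80.4 CPM at the lowest in EU and 80.5 at the highest in PBS). The log2 fold was 0.30 (SE 0.10, 95% interval 0.07 to 0.54, edgeR adjusted p = 0.481), or 1.23 times the PBS level. Without the filter on low counts, where 0.797% of 31108 genes passed in edgeR, Grm3 did so at a log2 fold of 0.31 (adjusted p = 0.0267, with adjusted p from 0.147 to 0.999 over the 14 other settings). The fold was 0.20 without PBS replicate 1, the library lowest in Grm3.

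Grm4 (chromosome 17, 27641361 to 27740377, minus strand) had the highest fold of the 6 receptors. It stood at 27.3, 25.5 and 32.8 CPM in the EU libraries, against 16.4, 22.0 and 21.6 CPM in the PBS libraries. Each EU library lay above each PBS library under TMM, RLE and upper quartile factors and with library totals alone. For Grm4 the log2 fold came to 0.51 (SE 0.14, 95% interval 0.20 to 0.82, edgeR adjusted p = 0.324), or 1.43 times the PBS level. With the correction for GC content and length the log2 fold was 0.60. Grm4 ranked at place 240 by p among all tested genes. It passed in DESeq2 (log2 fold 0.51, adjusted p = 0.0415) and in edgeR when no filter on low counts was applied (0.52, adjusted p = 0.00568), and in none of the 13 other settings, where the adjusted p ranged from 0.214 to 0.997.

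Grm7 (chromosome 6, 110622542 to 111544191, plus strand) was close to equal in both pulldowns. It stood at 51.0, 43.9 and 53.3 CPM in the EU libraries, against 46.9, 48.1 and 50.7 CPM in the PBS libraries. The EU libraries span the whole PBS range. The log2 fold was 0.02 (SE 0.09, 95% interval -0.17 to 0.22, edgeR adjusted p = 0.954), and its sign turned when 1 library was left out, be it EU replicate 1, EU replicate 3 or PBS replicate 1.

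Grm8 (chromosome 6, 27275118 to 28135177, minus strand) had the widest interval. It stood at 8.52, 9.75 and 10.9 CPM in the EU libraries, against 6.83, 10.45 and 8.90 CPM in the PBS libraries. The groups overlapped, with PBS replicate 2 above EU replicates 1 and 2. The log2 fold was 0.16 (SE 0.18, 95% interval -0.25 to 0.56, edgeR adjusted p = 0.864), and it ran from 0.003 without PBS replicate 1 and 0.06 without EU replicate 3 to 0.24 without EU replicate 1 and 0.30 without PBS replicate 2. A change of Grm8 smaller than about this interval was not detectable here.

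**Figure D2:**
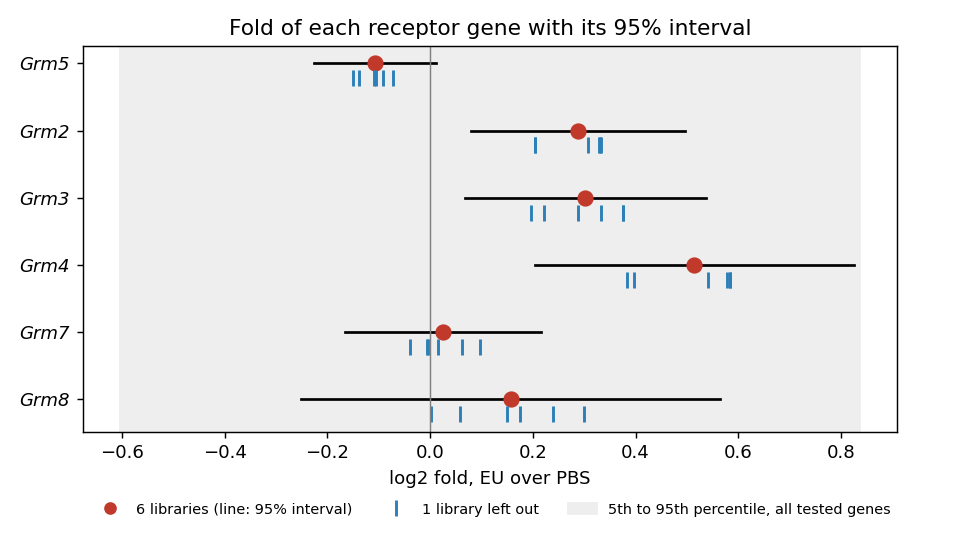
Log2 fold of EU over PBS for each receptor gene (points) with its 95% interval from edgeR's quasi-likelihood fit (lines), the folds with 1 library left out (ticks) and the 5th to 95th percentile of all tested genes (grey). The intervals of Grm2, Grm3 and Grm4 lie above 0 before adjustment over all genes, and all 6 folds lie inside the grey band.

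Reads of genes that overlap the receptors cannot be assigned with certainty, because the sources used here do not give the strand setting or the feature that was counted. The Grm7 locus holds the antisense noncoding gene Gm20387, with 158 counts over the EU libraries and 205 over the PBS libraries, and the pseudogene Gm20386, with 22 in EU and 58 in PBS. The Grm5 locus holds 5 unconfirmed single-exon loci on its own strand, of which Gm44846 had 205 counts in EU and 210 in PBS, Gm44847 148 in EU and 236 in PBS, and the other three 24 to 33 in EU and 21 to 89 in PBS. The genes overlapping Grm2, Grm4 and Grm8 held at most 1 count in either group, and the one overlapping Grm3, Gm42455, held 28 in EU and 15 in PBS.

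Ratios between receptors within a library do not depend on how libraries are scaled. Grm4 stood at 13.7, 13.6 and 17.1 per 100 of Grm5 in the EU libraries, against 8.29, 10.5 and 9.93 per 100 of Grm5 in the PBS libraries (CPM per kb of both genes). The groups did not overlap. Grm3 stood at 79.1, 96.0 and 102 per 100 of Grm5 in EU, against 62.8, 72.1 and 72.7 in PBS. Grm3 exceeded Grm5 in EU replicate 3 alone on this exon length, and in 0 libraries when the longest transcript was used. Grm2 stood at 43.9, 45.0 and 52.1 per 100 of Grm5 in EU, against 40.0, 31.3 and 36 in PBS. For Grm2 and Grm3 too the lowest EU library lay above the highest PBS library. Grm5, the denominator, was itself lower on average in EU, which raises each of these ratios there. How many of all tested genes lie apart in their ratio to Grm5 was not measured.

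Grm7 and Grm8 overlapped between the groups on this scale. Grm7 stood at 25.9, 23.8 and 28.2 per 100 of Grm5 in EU, against 24.1, 23.3 and 23.8 in PBS, and Grm8 at 2.58, 3.14 and 3.44 in EU, against 2.09, 3.01 and 2.48 in PBS. As a share of the summed CPM per kb of the 6 genes, Grm5 made up 37.7%, 35.5% and 33.0% in the EU libraries, against 42.1%, 41.6% and 40.8% in the PBS libraries. The 5 ratios share Grm5 as their denominator, so they are not independent of each other, and 3 libraries against 3 cannot give an exact permutation p below 0.1 for any one of them.

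**Figure D3:**
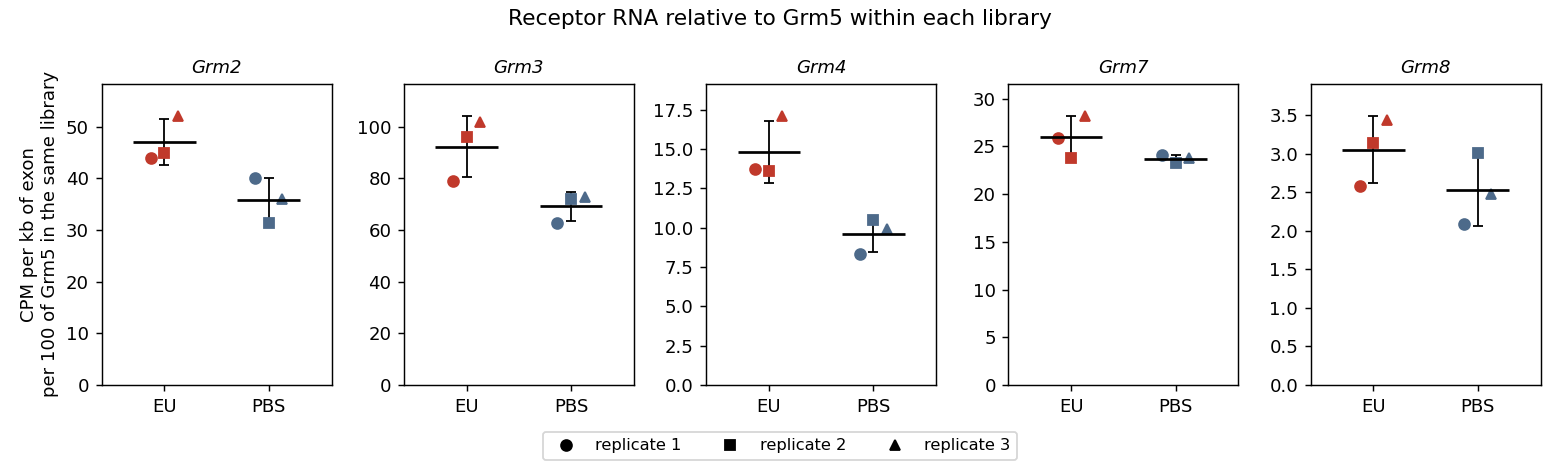
CPM per kb of annotated exon of each receptor gene per 100 of Grm5 in the same library, with 1 point per library, the group mean as a bar and the SD as the error bar (n = 3 each). For Grm2, Grm3 and Grm4 the EU points lie above the PBS points, while for Grm7 and Grm8 they overlap.

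Genes that carry the signal of group I receptors inside the cell gave no call. Of 21 genes of the Gq arm (Gq proteins, phospholipases C, inositol trisphosphate receptors, protein kinases C, diacylglycerol enzymes and TRPC channels), 8 had higher and 13 lower values in EU, and 0 passed. An unadjusted p under 0.05 was reached by 1 with higher and 4 with lower values, where 3.84% and 4.05% of all tested genes did so, and the median log2 fold was -0.05, against 0.01 over all tested genes.

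Plcb4, a phospholipase C downstream of group I receptors, averaged 29.6 ± 2.52 CPM in EU libraries and 23.6 ± 0.411 CPM in PBS libraries (SD, n = 3 each), with a log2 fold of 0.33 (edgeR adjusted p = 0.339). Prkce, protein kinase C epsilon, averaged 670 ± 16.1 CPM in EU libraries and 744 ± 29.4 CPM in PBS libraries (SD, n = 3 each), with a log2 fold of -0.15 (edgeR adjusted p = 0.409), which moved to -0.09 once GC content and length of the transcript were corrected for.

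The Gi/o arm, through which group II and III receptors act, gave no call either. Of 29 genes (Gi/o alpha, beta and gamma subunits, adenylyl cyclases, GIRK potassium channels and RGS proteins), 13 had higher and 16 lower values in EU, and 0 passed, with a median log2 fold of -0.01. Here 4 with higher and 3 with lower values had an unadjusted p under 0.05, against the same 3.84% and 4.05% of all tested genes. Adcy8, a calcium-stimulated adenylyl cyclase, stood at 36.4, 40.1 and 40.0 CPM in the EU libraries, against 24.0, 31.1 and 27.8 CPM in the PBS libraries. The groups did not overlap, and the log2 fold was 0.49 (SE 0.10, edgeR adjusted p = 0.198), or 0.57 with the correction for GC content and length. The G protein gamma subunits Gng7 and Gng3 had lower values in EU. Gng7 averaged 145.5 ± 2.89 CPM in EU libraries and 171 ± 4.18 CPM in PBS libraries (SD, n = 3 each), with a log2 fold of -0.24 (edgeR adjusted p = 0.221). Gng3 averaged 138 ± 4.94 CPM in EU libraries and 167 ± 15.0 CPM in PBS libraries (SD, n = 3 each), with a log2 fold of -0.27 (edgeR adjusted p = 0.318).

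Of 23 genes for proteins that bind, anchor or desensitise the receptors, 10 had higher and 13 lower values in EU, and 0 passed, with a median log2 fold of -0.08. CPM of the groups did not overlap for 6 with EU lower and 1 with EU higher, where 7.18% and 8.52% of all tested genes did so. Homer3, a scaffold that binds group I receptors, stood at 31.9, 28.6 and 30.2 CPM in the EU libraries, against 44.8, 34.8 and 43.0 CPM in the PBS libraries. The log2 fold was -0.43 (SE 0.10, edgeR adjusted p = 0.278), and without PBS replicate 2, the PBS library with the lowest value, it was -0.54 and passed (edgeR adjusted p = 0.0407). That fit called 20 of 19409 tested genes. With any other library left out Homer3 did not pass (edgeR adjusted p from 0.374 to 0.988). Ncdn, which encodes the mGlu5-binding protein neurochondrin, averaged 1845 ± 50.9 CPM in EU libraries and 2124 ± 164 CPM in PBS libraries (SD, n = 3 each), with a log2 fold of -0.20 (edgeR adjusted p = 0.335). Shank3, a postsynaptic scaffold joined to the receptors through Homer, had a log2 fold of -0.14 (edgeR adjusted p = 0.499), and of -0.008 under the same correction for GC content and length.

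Of 20 genes that supply or clear glutamate and the group II agonist N-acetylaspartylglutamate (NAAG), 9 had higher and 11 lower values in EU, and 0 passed, with a median log2 fold of -0.01. The vesicular glutamate transporters Slc17a7 and Slc17a6 had folds of opposite sign. Slc17a7, the transporter of hippocampal and cortical excitatory neurons, averaged 1048 ± 55.4 CPM in EU libraries and 1211 ± 26.8 CPM in PBS libraries (SD, n = 3 each), with a log2 fold of -0.21 (edgeR adjusted p = 0.255). Slc17a6, the transporter of thalamic and other subcortical neurons, stood at 20.8, 21.2 and 26.6 CPM in the EU libraries, against 11.1, 21.1 and 14.8 CPM in the PBS libraries, a log2 fold of 0.55 (edgeR adjusted p = 0.536). Leaving out PBS replicate 1 brought that fold to 0.35, and leaving out PBS replicate 2 brought it to 0.82. Glul, the glutamine synthetase of astrocytes, averaged 1305 ± 38.3 CPM in EU libraries and 1185 ± 52.3 CPM in PBS libraries (SD, n = 3 each), with a log2 fold of 0.14 (edgeR adjusted p = 0.459). Across the 4 lists DESeq2 called 9 genes, against 2.46% of all genes it gave an adjusted p, among them Adcy8 and the GIRK channel gene Kcnj9, higher in EU, and Prkce, Gng3, Gng7, Homer3, Ncdn and Slc17a7, lower in EU, and limma voom called 0. Without the filter on low counts edgeR called 7 list genes, against 0.797% of all genes, among them Adcy8, Gng3, Homer3 and Slc17a6.

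**Figure D4:**
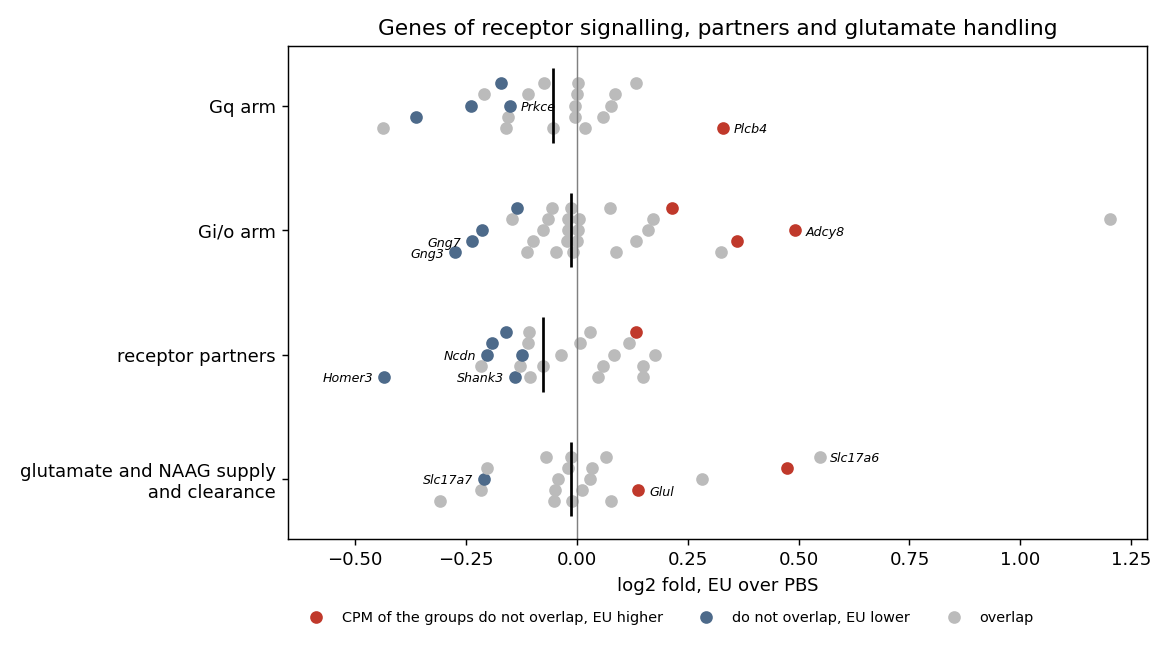
Log2 fold of EU over PBS for each tested gene of the 4 lists, with the list's median as a vertical bar and up to 3 genes of smallest p in each list named. Red points have every EU library above every PBS library, blue points the reverse, and none of the points passed the edgeR test with all 6 libraries and the filter.

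Neurons of the neocortex, thalamus, striatum and cerebellum and several glial cells express these receptors as well, so their markers were measured in the same libraries. Of 8 neocortex markers, 6 had higher values in EU, and their summed level was 352 to 432 CPM in EU libraries and 309 to 360 CPM in PBS libraries, with Rspo1 at 0 in PBS replicate 2. Of 7 tested thalamus markers, 6 had higher values in EU, and the sum over the 8 listed was 165 to 187 CPM in EU libraries and 134 to 162 CPM in PBS libraries, with Gbx2 at 0 in EU replicate 3 and PBS replicate 2. Of 6 striatum markers, 5 had higher values in EU (74.2 to 95.3 CPM in EU libraries and 65.0 to 88.3 CPM in PBS libraries). Of 8 astrocyte markers, 7 had higher values in EU (1932 to 2027 CPM in EU libraries and 1842 to 1910 CPM in PBS libraries), and of 9 interneuron markers 7 (827 to 869 CPM in EU libraries and 737 to 870 CPM in PBS libraries).

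Of 7 dentate granule markers, 6 had lower values in EU (406 to 431 CPM in EU libraries and 445 to 551 CPM in PBS libraries), and of 8 CA pyramidal markers 6 (447 to 565 CPM in EU libraries and 485 to 545 CPM in PBS libraries). Markers of cerebellar granule neurons had low counts, with Gabra6 at 3 to 9 in the EU libraries and 48 to 79 in the PBS libraries. Gabra6 and Cbln3 had lower values in EU, and with Barhl1, at 0 in PBS replicate 2, they summed to 0.673 to 0.831 CPM in EU libraries and 3.65 to 4.58 CPM in PBS libraries. Of 7 choroid plexus markers all had lower values in EU, over wide ranges (774 to 3820 CPM in EU libraries and 1736 to 5469 CPM in PBS libraries). Summed markers of mature oligodendrocytes (6010 to 6375 CPM in EU libraries and 6001 to 6354 CPM in PBS libraries), oligodendrocyte precursors (186 to 192 CPM in EU and 167 to 203 CPM in PBS), microglia (253 to 278 CPM in EU and 242 to 272 CPM in PBS) and endothelium (99.0 to 102 CPM in EU and 95.3 to 107 CPM in PBS) overlapped. None of these markers passed the edgeR test with all 6 libraries and the filter, and their part in the receptor values was not tested.

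**Figure D5:**
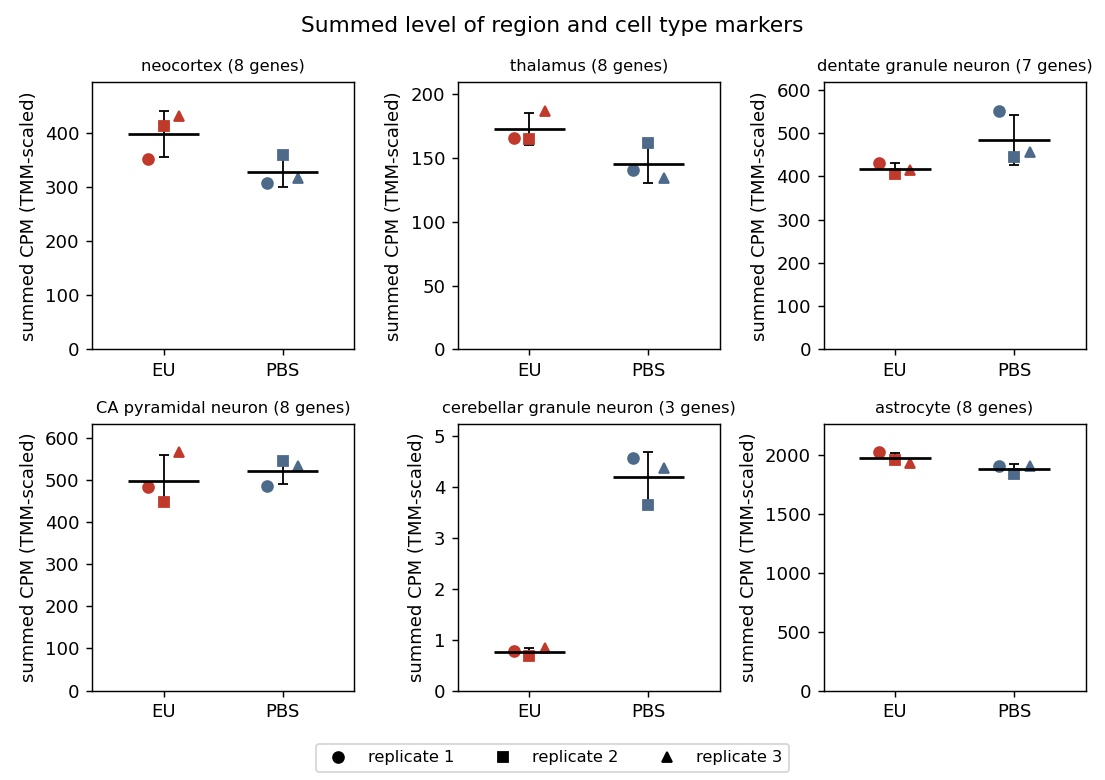
Summed TMM-scaled CPM of the markers of 6 regions or cell types, with 1 point per library, the group mean as a bar and the SD as the error bar (n = 3 each). EU libraries lie above PBS libraries for thalamus and astrocytes and below them for dentate and cerebellar granule neurons, while neocortex and CA pyramidal neurons overlap. For astrocytes the sums nearly met, at 1932 CPM for the lowest EU library and 1910 CPM for the highest PBS library. By single gene, 1 of 7 tested thalamus and 1 of 8 astrocyte markers lay apart with EU higher, against 8.52% of all tested genes. The astrocyte sum includes that 1 marker, and the sum without it was not measured. With EU lower, 3 of 7 dentate and 2 of 2 tested cerebellar markers lay apart, against 7.18%.

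The protein-coding genes whose log2 CPM ran most like that of each receptor over the 6 libraries were found among 13272 candidates with a mean of at least 1 CPM. For Grm4 they were Dcx, Crh and Oprd1 (Pearson's r 0.993, 0.992 and 0.990). For Grm3 they were Sfxn5, Usf2 and Chrdl1 (0.998, 0.995 and 0.990), and for Grm2 Suds3, Zfp382 and H2az2 (0.997, 0.992 and 0.989). For Grm5 they were Aqp11, Cand1 and Ccnjl (0.989, 0.983 and 0.980). For Grm7 they were Pxdn, Tra2a and Jmjd4 (0.988, 0.986 and 0.980), and for Grm8 Ubqln4 and Usp42 (0.997 and 0.993). With 6 libraries many genes reach such values, and r was over 0.9 for 34 candidates with Grm7 and up to 261 with Grm2, so these are descriptions of the 6 libraries.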

How the data were processed

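The table deposited by the authors gives raw counts of reads for each gene in each of the 6 libraries, without normalization. The submitters' processing notes list bcl2fastq 2.20.0, STAR 2.7.10b, featureCounts 2.0.1 and build GRCm39; no annotation release is given in the sources used here. The 92 ERCC spike-in rows, all at 0, were left out, leaving 55416 genes. Libraries were grouped by title. No library was a copy of another (lowest chi-square per degree of freedom between libraries 8.06).

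The test was edgeR 4.0.16 in R 4.3.3 (filterByExpr, TMM, quasi-likelihood, two-sided, treatment as the only term), with Benjamini-Hochberg adjustment over all 18511 tested genes at 0.05. Standard errors were taken as |log2 fold| over the root of F, and 95% intervals from the fit's total degrees of freedom. CPM were scaled by TMM factors; log2 CPM for correlations used a prior count of 2. Exon lengths and base composition came from GENCODE transcripts of build GRCm38, matched by identifier for 99.6% of tested genes; coordinates are the table's own. The test was tried on simulated data first. Alternatives were other scalings, no filter or a stricter one, DESeq2 1.42.0, limma 3.58.1 voom, the replicate number as a block, leaving out each library and, added after seeing the data, a loess offset for GC content and length. Figures used matplotlib 3.10.9.

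The receptor genes, lists and tests were chosen with earlier results of these data known. Named genes are the 6 receptors, the 3 of smallest p in each list, and the 3 most correlated with each receptor; 1 gene of a list and 1 correlated gene are not reported here. Kcnj9 was named after its values were seen.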

Additional observations from a re-analysis of the deposited data

How the results depend on the processing

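Over the 15 other settings Grm2, Grm3, Grm4, Grm5 and Grm8 kept the sign of their log2 fold, with ranges of 0.20 to 0.34, 0.20 to 0.38, 0.38 to 0.60, -0.15 to -0.07 and 0.003 to 0.30. Grm7 ranged from -0.0399 to 0.097 when a library was left out, and was below 0 when that library was EU replicate 1 or 3 or PBS replicate 1; the cause was not tested. Genes called over the whole table numbered 248 without the filter on low counts (160 higher, 88 lower in EU), 288 with DESeq2 (130 higher, 158 lower), 12 with limma voom and 18 with the replicate block, against 0 with edgeR, TMM, the filter, no block and all 6 libraries. Leaving out each library gave 0 to 20, the highest without PBS replicate 2. Of the 6 receptors, 2 passed without the filter (Grm3 and Grm4), where 0.797% of 31108 genes did. With DESeq2 1 receptor passed (Grm4), where 2.46% of the 11692 genes with an adjusted p did, and 0 passed in each fit that left out a library. Of the list genes (lists of 21, 29, 23 and 20), 7 passed without the filter and 9 with DESeq2, against the same shares. Leaving out each library gave 0 to 1 list genes. The labels do not say whether the replicate numbers pair libraries. Deviations of same-numbered libraries correlated at 0.0638, 0.0237 and 0.0982, and those of differently numbered libraries at -0.0707 to 0.0181. The same-numbered values were small but the highest, so a weak pairing cannot be set aside. With the replicate number as a block, 0 receptors and 0 list genes passed, and Grm4 had a log2 fold of 0.52 (edgeR adjusted p = 0.225). Where leaving out a library left 2 in a group, these were assumed to vary like the other group.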
